A study of Mus musculus with 4 samples.

Results

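Nucleosome remodelers were examined in mouse embryonic stem cells that had lost Exosc3. Its protein belongs to the RNA exosome, which degrades and trims many RNAs from their 3′ ends. Genes were taken by symbol: every Smarc gene, the numbered Chd and Arid genes, Baz1 and Baz2 genes, Ino80 genes, Ep400 and Srcap. Symbols matched 37 of the 22883 rows, each symbol with a single row. Srcap, Smarca2, Smarcc2, Smarcd3, Chd3, Chd8 and Ino80e were not analysed here. Total RNA came from Exosc3 conditional knockout (CKO) clones made in the V6.5 line and grown without feeder cells, all libraries alike. In 2 libraries doxycycline was kept at 0.1 µg/ml (Exosc3-present), and in 2 libraries it had been withdrawn for 3 days (Exosc3-depleted). Doxycycline and Exosc3 changed together and cannot be told apart. The labels do not say whether the replicates were separate cultures or clones, so p-values measure only the spread between these libraries, which may be technical.

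Remodelers use ATP to slide, evict, space or exchange nucleosomes, and they fall into families named for their motor subunits. SWI/SNF complexes open enhancers and promoters, ISWI motors space nucleosomes in regular arrays, CHD proteins read modified histones or act within the repressive NuRD complex, and INO80, SRCAP and EP400 complexes exchange histone variants. Embryonic stem cells depend on a particular SWI/SNF assembly built around the motor encoded by Smarca4, and on NuRD, for self-renewal and for leaving pluripotency.

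Values are FPKM, fragments per kilobase of gene model scaled to the library total, so levels of different genes can be compared per length. The library totals recovered from the values were 60851774 and 55233386 fragments in the Exosc3-present libraries 1 and 2, and 38095698 and 41968325 in the Exosc3-depleted libraries 1 and 2. The gene models held 49.7% and 51.8% of these fragments in Exosc3-present libraries 1 and 2, and 42.4% and 44.0% in Exosc3-depleted ones. FPKM divides by the whole total, so this share enters every value. Its part in the falls and rises below was not tested. Tested members held between 125 and 39296 fragments per library, so counting error was small for most. Exosc3 stood at 24.2 and 23.2 FPKM in Exosc3-present and at 0.635 and 0.691 FPKM in Exosc3-depleted libraries, which matched the labels in all 4. Of 8 stem cell markers listed 6 had a row, and their summed level was 3072 and 3081 FPKM against 1953 and 1295. Dppa5a gave most of that sum (2206 and 2230 FPKM against 1357 and 817) and passed as lower (limma adjusted p = 0.0122). Esrrb (2.51-fold lower, adjusted p = 0.00118), Tdgf1 (3.01-fold, 0.00135) and Zfp42 (2.83-fold, 0.00202) also passed. Pou5f1 (adjusted p = 0.167) and Utf1 (0.339) did not pass. Primitive endoderm markers summed to 15.3 and 19.0 FPKM against 73.2 and 67.7. Most of that sum came from the collagen genes Col4a1 and Col4a2. Col4a1 was at 8.44 and 11.1 FPKM against 39.9 and 38.2, and Col4a2 at 4.42 and 5.74 against 27.9 and 23.7. Gata4 (0.857 and 0.747 against 2.01 and 1.64), Gata6 and Sox17 also rose, at low levels. Dab2 did not pass, and Foxa2 and Sox7 were too low to be tested. Fibroblast markers summed to between 2.80 and 4.004 FPKM, with Dcn, Lum and Postn at 0 throughout. Within that list Thy1 fell (2.39 and 2.09 FPKM against 0.151 and 0.206), and Twist1 (0.232 and 0.233 against 1.47 and 0.877) and Pdgfra (0.293 and 0.276 against 0.531 and 0.939) rose. Neural markers summed to 82.8 and 79.3 FPKM against 35.2 and 37.5, with Dcx at 0. Tubb3 carried most of that sum and fell, from 81.2 and 77.1 FPKM to 23.5 and 19.6. Nes rose, from 1.29 and 1.88 FPKM to 8.42 and 11.7, and so did Neurod1, from 0.244 and 0.269 to 3.32 and 6.13. Pax6 was too low to be tested. The part that these shifts had in the results below was not tested. In bulk RNA, fewer cells of a type and less RNA per cell cannot be told apart.

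Most remodeler genes showed no change that passed the test, and the larger pattern among them was a difference between the Exosc3-depleted libraries themselves. Among the 36 members with a mean of at least 0.5 FPKM, 7 fell (Baz2a, Chd4, Chd1l, Smarca4, Smarce1, Arid3b and Chd5), 2 rose (Baz1a and Ino80b) and 27 did not pass (limma on log2(FPKM + 0.5), adjusted p under 0.05 over all tested rows). In the background, 30.1% of all 9336 tested rows fell and 12.6% rose, against 19.4% and 5.56% of the members, so members passed no more often than other rows. The median member had a log2 fold change of -0.22, beside -0.27 for all tested rows. In 15 members each Exosc3-depleted library lay below each Exosc3-present library, where 50.9% of all rows did so, and in 4 members each lay above, where 22.2% of all rows did so. Arid3c, the member too low to be tested, was at 0.394 and 0.403 FPKM against 0.165 and 0.245.

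**Figure D1:**
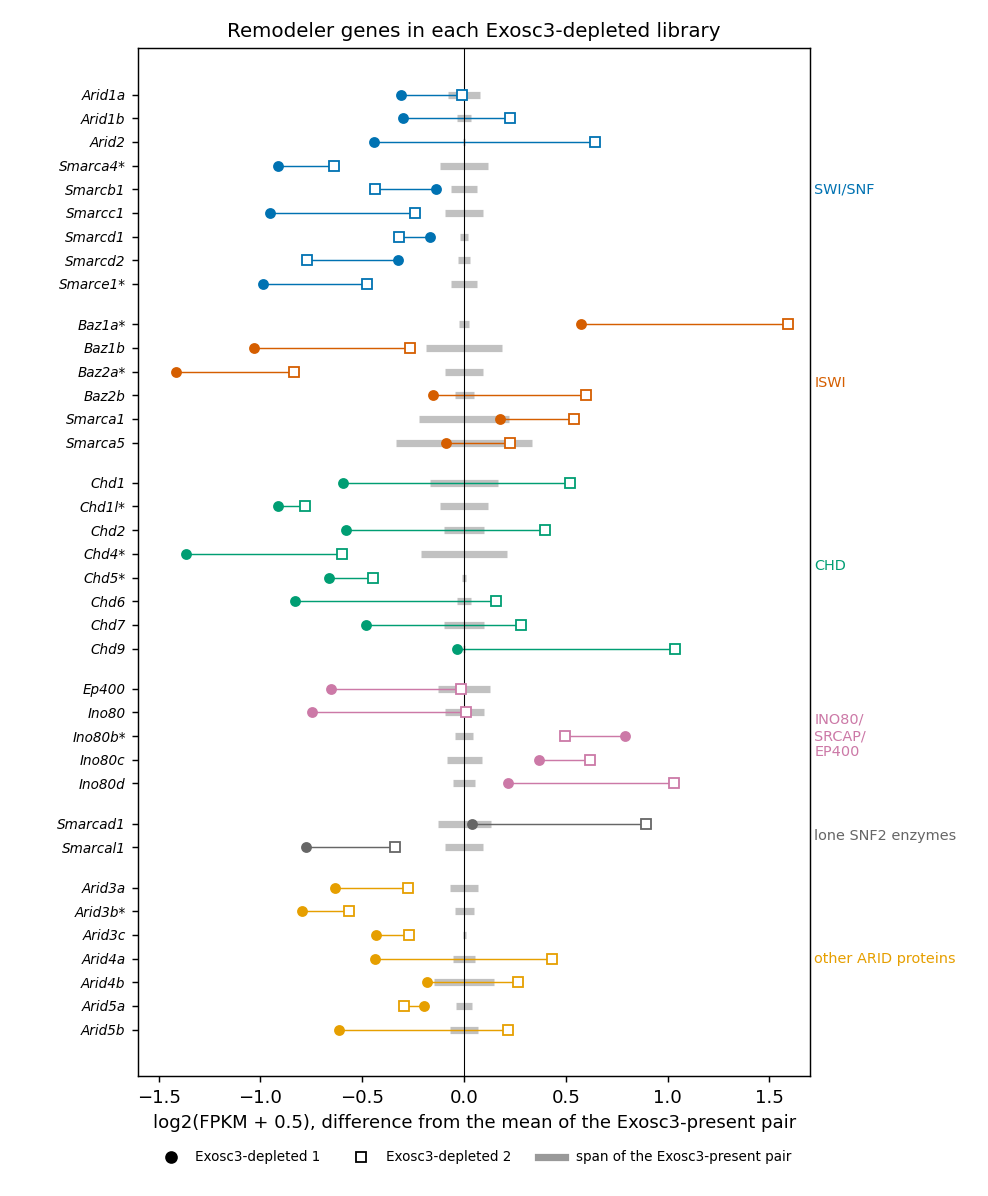
Each row is a member, grouped by complex, and the horizontal axis is the difference of log2(FPKM + 0.5) from the mean of the Exosc3-present pair; filled circles are Exosc3-depleted replicate 1, open squares replicate 2, grey bars the span of the Exosc3-present pair, and asterisks members that passed the test. Open squares lie to the right of filled circles for most members, and 11 members have the circle on the left and the square on the right of the grey bar.

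Which members passed, and the balance of lower and higher calls, depended on the scaling. Members that passed as reported kept the sign of their log2 fold change in every alternative. Scaling by the median of ratios, which moved the median row from -0.27 to 0.01, left 1 member lower (Baz2a) and 6 higher (Baz1a, Ino80b, Ino80c, Ino80d, Smarca1 and Smarcad1), beside 16.8% and 19.2% of all rows. Higher calls made up 29.6% of all calls as reported and 53.4% with that scaling. Removal of each library's trend on gene model length gave 5 lower (Baz2a, Chd1l, Chd4, Smarca4 and Smarce1) and 7 higher, beside 24.4% and 20.7% of all rows. That removal also moved the median row, to -0.06, so its counts do not separate length from scaling. Removal of the trend on gene span moved the median row to -0.04. Single libraries mattered as much. Without Exosc3-depleted replicate 2, 20 members were lower and 3 higher (52% and 16.6% of all rows), and without Exosc3-depleted replicate 1, 9 were lower and 12 higher (41.1% and 22.7%). Leaving out Exosc3-present replicate 1 gave 2 lower and 1 higher (13.9% and 7.72%), and leaving out Exosc3-present replicate 2 gave 0 lower and 1 higher (11.1% and 7.7%). A fit that leaves out a library takes its spread from the pair of the other group, and over all rows the SD of the log2 difference within a pair was 0.432 for Exosc3-depleted and 0.188 for Exosc3-present. Of 18 alternatives, Baz2a passed in 16, Ino80b in 15, Chd1l in 14, Chd4 and Smarca4 in 13, and Arid3b and Smarce1 in 11. Baz1a passed in 15 and Chd5 in 10 of the 17 in which they were tested.

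**Figure D2:**
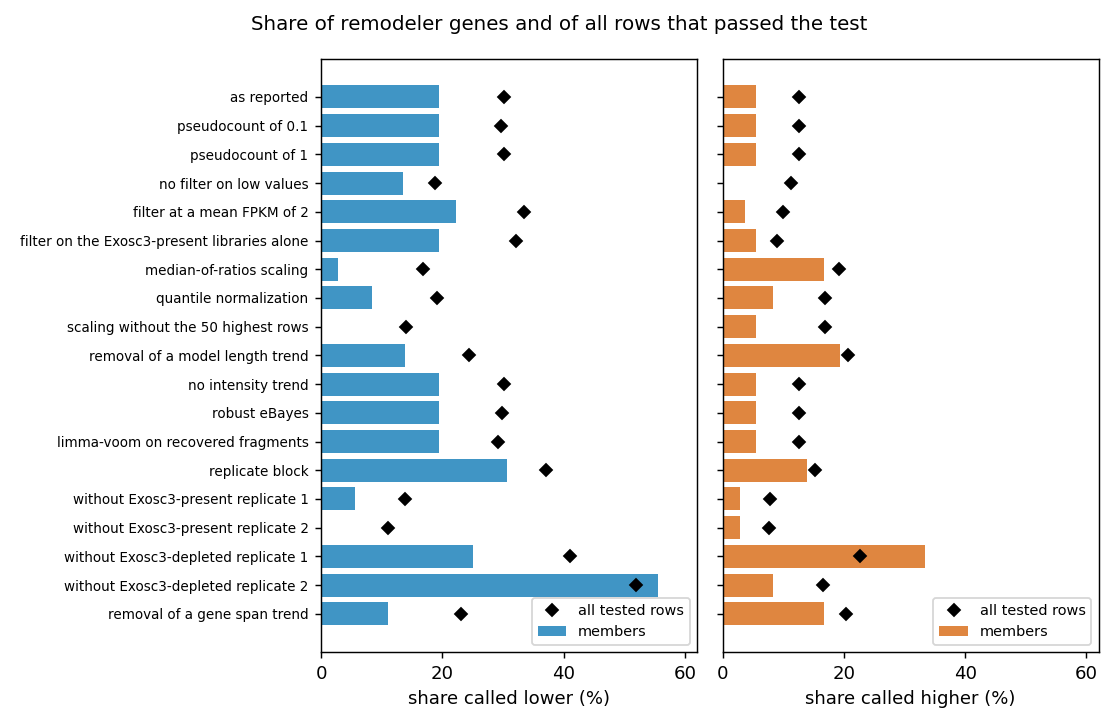
Bars give the share of tested members called lower (left) or higher (right) under each setting, in percent, and diamonds give the same share of all tested rows. Bars reach past the diamonds only without Exosc3-depleted replicate 2 for lower calls (55.6% against 52%) and without Exosc3-depleted replicate 1 for higher calls (33.3% against 22.7%).

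In the SWI/SNF complex 2 of 9 tested subunit genes fell and none rose, with a median log2 fold change of -0.29. Of all rows 30.1% fell and 12.6% rose. Smarca4, the ATPase motor of the stem cell complex, was at 41.4 and 48.8 FPKM in Exosc3-present libraries and at 23.6 and 28.7 in Exosc3-depleted ones. Each Exosc3-depleted library lay below each Exosc3-present one, as in 50.9% of all rows. Smarca4 was 1.73-fold lower (log2 -0.78, SE 0.19, limma adjusted p = 0.0153). Smarce1, an HMG-box subunit of the common core, was at 14.9 and 16.4 FPKM against 7.63 and 11.1 (log2 -0.73, SE 0.22, adjusted p = 0.0336). Neither call held without Exosc3-present replicate 1 (adjusted p = 0.0763 for Smarca4 and 0.160 for Smarce1) or replicate 2 (0.231 and 0.270). Their log2 fold changes in those fits, -0.89 and -0.66 for Smarca4 and -0.80 and -0.67 for Smarce1, were near the reported ones. With median-of-ratios scaling the log2 fold changes were -0.46 and -0.43 (adjusted p = 0.111 and 0.147).

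The other scaffold and core subunits lay lower in each Exosc3-depleted library, as 50.9% of all rows did, without passing. Smarcc1, a scaffold of the stem cell complex, was at 27.6 and 31.4 FPKM against 15.0 and 24.8 (log2 -0.60, adjusted p = 0.100). Smarcd2 was at 22.05 and 22.9 FPKM against 17.9 and 13.0 (log2 -0.55, adjusted p = 0.0678). Its paralogue Smarcd1, the more abundant of the pair, was at 32.1 and 31.3 against 28.2 and 25.3 (log2 -0.24, adjusted p = 0.276), and the difference between the paralogues was not tested. Smarcb1, the core subunit lost in rhabdoid tumours, was at 54.0 and 59.0 FPKM against 51.3 and 41.6 (log2 -0.29, adjusted p = 0.238). Smarcb1, Smarcd1 and Smarcd2 were the SWI/SNF genes lower in Exosc3-depleted replicate 2 than in replicate 1, and their models, of 1630, 3153 and 2755 bases, are with Smarce1 (2918) the shortest of this complex.

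None of the ARID subunits, which distinguish SWI/SNF variants, passed the test. Arid1a, of the canonical complex, was at 11.99 and 13.4 FPKM in Exosc3-present libraries and at 10.1 and 12.6 in Exosc3-depleted ones, so the groups overlapped (log2 -0.16, adjusted p = 0.534). Its paralogue Arid1b was at 1.47 and 1.56 FPKM against 1.14 and 1.85 (log2 -0.04, adjusted p = 0.906). Arid2, the subunit that marks the PBAF variant, was at 2.54 and 2.52 FPKM against 1.73 and 4.23 (log2 0.10, adjusted p = 0.832). For Arid1b and Arid2 replicate 1 lay below and replicate 2 above each Exosc3-present library.

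Among ISWI motors and their partners 1 of 6 genes fell, 1 rose and 4 did not pass, where 30.1% of all rows fell and 12.6% rose. Baz2a, whose protein joins the Smarca5 motor in a complex that silences ribosomal RNA genes, had the largest fall of the tested members. It was at 21.0 and 24.0 FPKM against 8.11 and 12.4, or 2.20-fold lower (log2 -1.13, SE 0.23, adjusted p = 0.00864). Baz1a, the partner of the same motor in the ACF and CHRAC spacing complexes, had the largest rise. It was at 0.816 and 0.864 FPKM against 1.495 and 3.54, or 3.00-fold higher (log2 1.08, SE 0.32, adjusted p = 0.0317), with the Exosc3-depleted libraries far apart. Baz1a passed with each library left out in turn and did not pass when scaling ignored the 50 highest rows (adjusted p = 0.0515) or when low rows were kept (0.0913). Baz2a lost its call without Exosc3-present replicate 2 (log2 -1.03, adjusted p = 0.0569) and when scaling ignored the 50 highest rows (0.0702).

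The ISWI motor genes themselves did not pass. Smarca5, the main ISWI ATPase of these cells by level, was at 23.8 and 38.1 FPKM in Exosc3-present and 28.3 and 35.3 in Exosc3-depleted libraries (log2 0.07, SE 0.25, adjusted p = 0.845). The Exosc3-depleted values lay between the Exosc3-present ones. Smarca1, the second ISWI ATPase, was low at 0.661 and 1.08 FPKM against 1.03 and 1.46 (log2 0.36, adjusted p = 0.230). Baz1b, the Williams syndrome region partner of Smarca5, was at 10.95 and 14.4 FPKM against 5.89 and 10.3 (log2 -0.65, adjusted p = 0.108). Baz2b, the paralogue of Baz2a, was at 0.959 and 0.868 FPKM against 0.773 and 1.64 (log2 0.22, adjusted p = 0.515), below the Exosc3-present pair in replicate 1 and above it in replicate 2.

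Of 8 tested CHD genes 3 fell (37.5%, beside 30.1% of all rows) and none rose (12.6% of all rows). Chd4, the motor of NuRD, was the most abundant member, at 82.3 and 111 FPKM in Exosc3-present and 36.8 and 62.8 in Exosc3-depleted libraries. It was 1.94-fold lower (log2 -0.98, SE 0.28, adjusted p = 0.0285). Chd1l, a remodeler activated by poly(ADP-ribose) at DNA breaks, was at 11.1 and 13.2 FPKM against 6.20 and 6.84, with close values within each group (log2 -0.85, SE 0.19, adjusted p = 0.0110). Chd5, a relative of Chd4 best known in neurons, was at 1.36 and 1.34 FPKM against 0.670 and 0.859 (log2 -0.55, SE 0.17, adjusted p = 0.0353). With median-of-ratios scaling the log2 fold change was -0.67 for Chd4, -0.54 for Chd1l and -0.34 for Chd5 (adjusted p = 0.0724, 0.0583 and 0.138). Without Exosc3-present replicate 2 it was -0.77, -0.73 and -0.56 (0.125, 0.234 and 0.289). Without Exosc3-present replicate 1 Chd4 passed (-1.20), and Chd1l (-0.96, adjusted p = 0.0843) and Chd5 (-0.55, 0.287) did not.

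**Figure D3:**
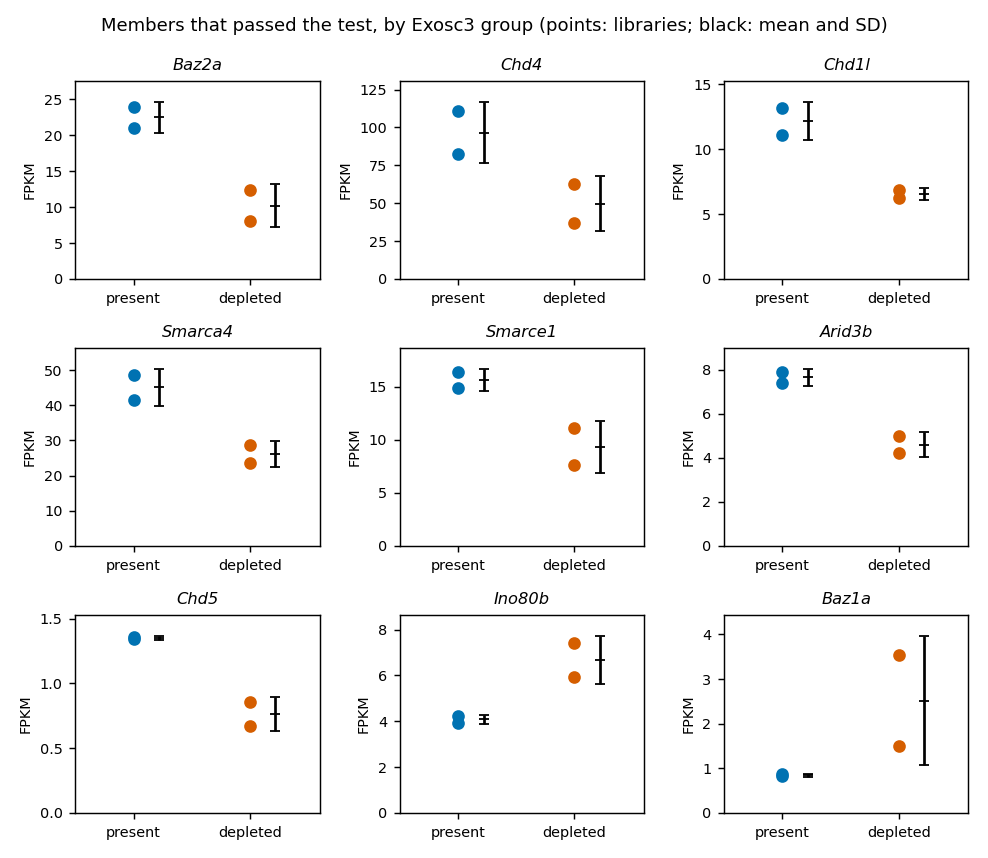
FPKM of the 9 members that passed the test, each panel with its own linear axis from 0; blue points are Exosc3-present and orange points Exosc3-depleted libraries, and black marks give the mean and SD (n = 2). The groups do not overlap in any panel, but the panels show only members that passed. Of all tested rows 50.9% had each Exosc3-depleted library below each Exosc3-present one, and 22.2% above. The Exosc3-depleted points of Baz1a, at 1.495 and 3.54, are the farthest apart in proportion.

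The remaining CHD motors, Chd1, Chd2, Chd6, Chd7 and Chd9, all had a higher level in Exosc3-depleted replicate 2 than in replicate 1. So did 57.6% of all tested rows, and 84.4% of the longest quintile by model length, which holds these 5 genes. Chd1, which binds histone H3 methylated at active promoters, was at 4.36 and 5.62 FPKM in Exosc3-present libraries and at 3.11 and 7.34 in Exosc3-depleted ones. Chd2, its close relative, was at 3.44 and 4.002 FPKM against 2.32 and 5.05. Chd7, the gene mutated in CHARGE syndrome, was at 2.73 and 3.20 against 1.97 and 3.70. Chd6 was at 2.43 and 2.57 FPKM against 1.18 and 2.84, and Chd9 at 1.57 and 1.58 against 1.52 and 3.75. In each of these 5 genes replicate 1 was below and replicate 2 above the whole Exosc3-present pair. The same held for 11.3% of all tested rows and for 24.6% of the longest quintile. For Chd9 replicate 1 was only just below the Exosc3-present pair (log2 -0.04 from the mean of the pair). The log2 fold changes of these 5 genes, between -0.34 and 0.50, therefore average differences of opposite sign, nearly 0 in replicate 1 for Chd9. None passed (limma adjusted p between 0.267 and 0.943). Without Exosc3-depleted replicate 1 Chd1, Chd2 and Chd9 were called higher, and without Exosc3-depleted replicate 2 Chd1, Chd2, Chd6 and Chd7 were called lower.

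In the INO80, SRCAP and EP400 group 1 of 5 tested genes rose (20%, beside 12.6% of all rows) and none fell (30.1% of all rows). Ino80b, a small subunit of the INO80 complex, was at 4.21 and 3.94 FPKM against 7.41 and 5.95, or 1.64-fold higher (log2 0.64, SE 0.20, adjusted p = 0.0353). Its call did not hold without Exosc3-present replicate 1 (adjusted p = 0.269) or replicate 2 (0.361), or with low rows kept (0.0541), although the log2 fold change was 0.68, 0.60 and 0.64 in these fits. The subunit genes Ino80c and Ino80d also had each Exosc3-depleted library above each Exosc3-present library, as 22.2% of all rows did. Ino80c was at 2.47 and 2.13 FPKM against 3.10 and 3.80 (log2 0.49, adjusted p = 0.0811), and Ino80d at 0.715 and 0.629 against 0.859 and 1.89 (log2 0.62, adjusted p = 0.105). The ATPase genes of the group did not share this. Ino80 was at 5.04 and 5.82 FPKM against 3.03 and 5.45 (log2 -0.37, adjusted p = 0.314). Ep400, the motor that places the variant H2A.Z, was at 8.74 and 10.5 FPKM against 5.92 and 9.49 (log2 -0.33, adjusted p = 0.322). For each of these motors replicate 2 lay within the Exosc3-present range and replicate 1 below it.

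The lone SNF2 enzymes went in opposite directions and did not pass. Smarcad1, which keeps heterochromatin through replication, was at 5.83 and 7.08 FPKM against 6.61 and 12.4 (log2 0.46, adjusted p = 0.244). Smarcal1, which reanneals DNA at stalled forks, was at 4.50 and 5.21 FPKM against 2.62 and 3.73 (log2 -0.56, adjusted p = 0.0797). Among the ARID proteins outside SWI/SNF, which share only a DNA-binding domain with it, 1 of 6 fell, beside 30.1% of all rows. Arid3b, a transcription factor of the ARID3 group, was at 7.38 and 7.91 FPKM against 4.20 and 4.99 (log2 -0.68, SE 0.19, adjusted p = 0.0254). Its call did not hold without Exosc3-present replicate 1 (0.236) or 2 (0.331), where the log2 fold change was -0.73 and -0.63. With median-of-ratios scaling it was -0.39 (0.147). The other 5 had log2 fold changes between -0.45 (Arid3a) and 0.04 (Arid4b).

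Arid4a, Arid4b and Arid5b showed the same opposed replicates as the CHD motors. Arid4a, which recruits the Sin3 deacetylase complex with the retinoblastoma protein, was at 1.09 and 1.21 FPKM against 0.718 and 1.719. Arid4b was at 0.958 and 1.28 FPKM against 0.920 and 1.44, and Arid5b, a partner of a histone demethylase, at 6.93 and 7.68 against 4.59 and 8.57. In all, 11 of 36 members (30.6%) had Exosc3-depleted replicate 1 below and replicate 2 above the Exosc3-present pair, where 11.3% of all tested rows did. A value counted however little it lay outside the pair, as for replicate 1 of Chd9 and Arid4b.

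Opposed replicates were found among long genes, in the members and in the rest of the table. Members were long: their median model length, recovered from the spacing of the FPKM values, was 6237 bases against 2494 for all tested rows, and their median span with introns was 75620 bases against 22204. Exosc3-depleted replicate 2 exceeded replicate 1 in 31 of 36 members (86.1%) and in 57.6% of all rows. The median log2 difference of replicate 2 from replicate 1 was 0.55 in members and 0.09 in all rows. Against the Exosc3-present mean, the median member was at log2 -0.46 in Exosc3-depleted replicate 1 and 0.08 in replicate 2, and the median row at -0.36 and -0.19. Within the Exosc3-present pair the members' median difference was 0.14, beside 0.07 for all rows.

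Over all tested rows the median difference of Exosc3-depleted replicate 2 from replicate 1 rose with each quintile of model length. It went from -0.13 in the shortest (100 to 1321 bases) through -0.07, 0.07 and 0.24 to 0.49 in the longest (4251 to 23242 bases). The longest quintile held 27 of the 36 tested members, and all 11 members with opposed replicates. Within that quintile the members' median difference was 0.75, and replicate 2 was the higher in 26 of 27 members and in 84.4% of rows. There 11 of 27 members against 24.6% of rows had opposed replicates. The members were not matched in length to the rows of that quintile, whose median model had 5510 bases. The 5 members with replicate 2 below replicate 1 were Ino80b, Smarcb1, Smarcd1, Smarcd2 and Arid5a, with models of 1038, 1630, 3153, 2755 and 5699 bases. Across the 36 members the rank correlation (Spearman) of the replicate difference was 0.58 with model length and 0.67 with gene span. Across all rows it was 0.46 over 9336 rows and 0.49 over the 8895 with a span. All points come from the same pair of libraries, so these values describe those libraries only. Medians of all rows within the Exosc3-present pair also rose with each quintile of model length, from -0.001 through 0.03, 0.07 and 0.09 to 0.12. Per the labels all RNA had passed a quality (RIN) threshold, and what set these length trends was not tested.

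**Figure D4:**
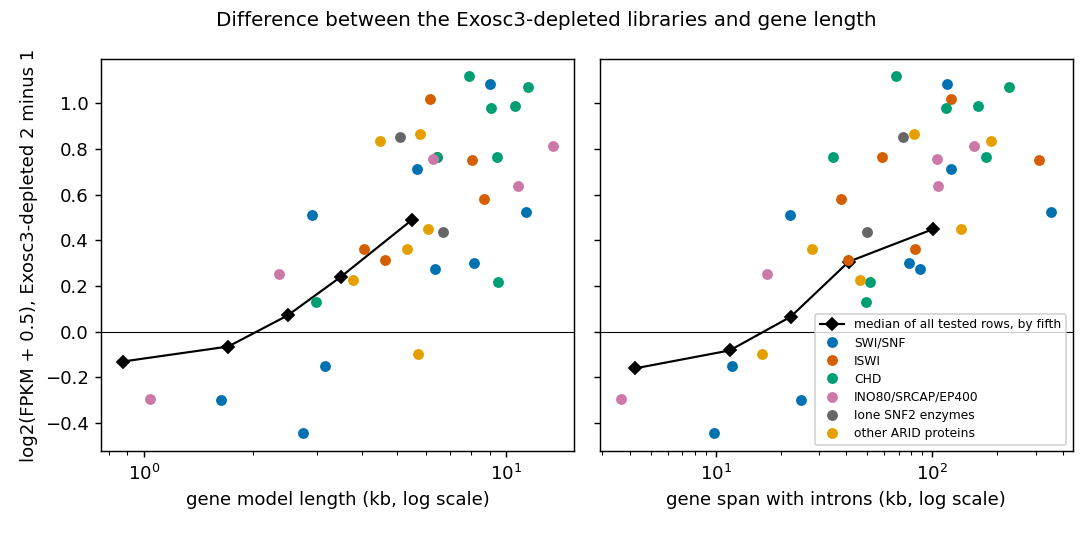
Difference of log2(FPKM + 0.5) between Exosc3-depleted replicates 2 and 1 for each tested member, coloured by complex, against model length (left) and gene span (right) in kb on log axes; black diamonds are medians of all tested rows by quintile of length, drawn at the median length of the quintile. Members sit mostly above 0 and at the long end, where the medians of all rows reach 0.49 by model length and 0.45 by span.

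For the difference between groups, rank correlations with length were nearer 0. Across members that of the log2 fold change was 0.08 with model length and 0.33 with span, and over all rows it was 0.02 and -0.02. In the longest quintile of all rows 24.3% fell and 9.21% rose, and 4 and 1 of the 27 members there did. With the length trend removed, 5 of the 7 falls and each of the 2 rises passed again, Arid3b (adjusted p = 0.0547) and Chd5 (0.0723) being the exceptions. That removal also moved the median row, to -0.06.

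Subunits and motors that the symbols above do not reach were taken from lists of SWI/SNF, NuRD, ISWI and INO80, SRCAP or EP400 partners and of other SNF2 enzymes. Of 72 listed symbols 56 had a row and 52 were tested. Of these 13 fell (25% against the 30.1% background) and none rose (12.6% of all rows). An unadjusted limma p under 0.05 was found for 15 of the 52, and for 4801 of all 9336 tested rows. Counts of partners that rose were not 0 in every setting. With the length trend removed 6 rose (11.5%, beside 20.7% of all rows), and with median-of-ratios scaling 3 rose (5.77%, beside 19.2%). The median was log2 -0.34. In SWI/SNF, 3 of 10 partners fell. Actl6a, the actin-related subunit of the stem cell complex, went from 60.4 and 62.04 FPKM to 28.3 and 32.5 (log2 -1.00, adjusted p = 0.00385). Dpf1, the PHD finger subunit of neuronal SWI/SNF, went from 5.05 and 5.05 to 1.57 and 1.98 (log2 -1.29, adjusted p = 0.00250), and Bcl7a fell by 0.78. Brd7, a PBAF bromodomain subunit, was at log2 -0.49 (adjusted p = 0.119).

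In NuRD, 3 of 9 partners of Chd4 fell (33.3%, beside 30.1% of all rows). The deacetylase gene Hdac1 went from 46.4 and 43.4 FPKM to 20.2 and 27.4 (log2 -0.92, adjusted p = 0.0103), Mta1 fell by 0.77 and Gatad2a by 0.57 on the log2 scale, and Mbd3 was at -0.43 (adjusted p = 0.108). Of 4 ISWI partners 1 fell, Chrac1, the histone-fold subunit that joins Baz1a in CHRAC (12.6 and 10.8 FPKM against 7.96 and 5.77, log2 -0.74, adjusted p = 0.0304). Its histone-fold partner Pole3 was at log2 -0.54 (adjusted p = 0.132), Cecr2 at -0.60 (0.117) and Bptf, the large NURF subunit, at -0.41 (0.335). Of 20 INO80, SRCAP and EP400 partners 4 fell. Ruvbl1, an AAA+ ATPase shared by these complexes, went from 44.8 and 48.6 FPKM to 19.7 and 18.6 (log2 -1.26, adjusted p = 0.00155), the deubiquitinase gene Uchl5 fell by 1.21, Meaf6 by 0.62 and Yeats4 by 0.57. Of 9 other SNF2 enzymes Ttf2, a transcription termination factor, fell (18.5 and 23.8 FPKM against 5.91 and 9.17, log2 -1.45, adjusted p = 0.00438), as did Rad54l2 (-0.89, adjusted p = 0.0437). Zranb3 (-0.49) and the DNA methylation cofactor gene Hells (-0.34) did not pass. Without Exosc3-present replicate 1, and likewise without replicate 2, 5 partners passed as lower. Bcl7a, Chrac1, Gatad2a, Hdac1, Meaf6, Mta1, Rad54l2 and Yeats4 lost their calls in each of these fits (adjusted p between 0.0563 and 0.448).

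Exons of 18 members touch exons of another annotated gene in GENCODE annotation of the GRCm38 assembly, which is not the mm9 build of the table. These include 7 of the 9 members that passed, all but Baz2a and Smarce1. The share of all genes with such an overlap was not counted. The longest shared stretch was 63 bases in Chd4, 99 in Smarca4, 101 in Chd5, 141 in Chd1l and 360 in Arid3b. Baz1a shares up to 346 bases of an exon with Gm20403 on the same strand, and Ino80b 91 bases with the antisense gene Gm44287. Whether counting used strand is not given in the sources used here, so the share of such neighbours in these values is uncertain.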

How the data were processed

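Stranded, ribosomal RNA-depleted, paired-end libraries were made from total RNA, per the labels' protocols. The authors deposited FPKM values for 22883 UCSC gene models in 4 library columns. The submitters' processing notes name mm9, Bowtie2, STAR, Picard, bedtools and edgeR, without roles; how FPKM was calculated is not given in the sources used here. Because FPKM moves in steps of 1 fragment, whole fragments and model lengths could be recovered for all 15471 rows above 0 (tolerance 0.004 fragment, wider at high counts). The recovery was tested on simulated data and used only for depth, length and limma-voom. Gene spans came from GENCODE vM21 by symbol.

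Groups were compared on log2(FPKM + 0.5) by limma 3.58.1 in R 4.3.3, with eBayes trended on mean level, for rows averaging at least 0.5 FPKM, two-sided, with Benjamini-Hochberg adjustment over all genes tested and a threshold of 0.05. Fold values are ratios of mean FPKM; log2 changes understate those of low genes. Members, lists and tests were chosen with earlier results of these data known. Levels by library were to be given for members that passed, the ATPase genes, and paralogues that differed in call; those of other members and of some partners were added after their values were seen. The 4 partners with the smallest p in each of 5 lists were named. Alternatives covered pseudocount, filter, scaling, length trends, priors, limma-voom, leaving out each library and a replicate block. The trend on gene span was added after seeing the data.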

Additional observations from a re-analysis of the deposited data

How the results depend on the processing

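Of the 36 members' log2 fold changes, 4 values took the opposite sign with a call: without Exosc3-depleted replicate 1 Chd1 (0.52), Chd2 (0.40) and Arid4a (0.43), and without Exosc3-depleted replicate 2 Arid2 (-0.44). With the other Exosc3-depleted library left out instead, these were -0.60, -0.58, -0.44 and 0.64. A further 56 values, in 16 members, changed sign with no call on either side. Exosc3 stayed called lower in all 18 alternatives. Members called lower numbered 7 as reported, 1 with median-of-ratios scaling, 3 with quantile normalization, 0 with scaling without the 50 highest rows, 4 with removal of a gene span trend, 11 with the replicate block and 0 to 20 with a library left out. Members called higher numbered 2 as reported, 0 with no filter on low values, 1 with a minimum mean of 2 FPKM, 6 with median-of-ratios scaling, 7 with removal of a model length trend, 6 with removal of a gene span trend, 5 with the replicate block and 1 to 12 with a library left out. Partners called lower numbered 13 as reported, 6 with median-of-ratios scaling, 6 with quantile normalization, 4 with scaling without the 50 highest rows, 8 with removal of a gene span trend and 5 to 28 with a library left out. Partners called higher numbered 0 as reported, 3 with median-of-ratios scaling, 1 with quantile normalization, 6 with removal of a model length trend, 5 with removal of a gene span trend and 0 to 11 with a library left out. All rows called lower numbered 2806 as reported, 1568 with median-of-ratios scaling, 1782 with quantile normalization, 1311 with scaling without the 50 highest rows and 1040 to 4808 with a library left out. All rows called higher numbered 1177 as reported, 667 with a minimum mean of 2 FPKM, 1797 with median-of-ratios scaling, 1931 with removal of a model length trend, 1895 with removal of a gene span trend and 719 to 2123 with a library left out. The cause of these shifts was not tested. Counts with other pseudocounts, no intensity trend, robust eBayes and limma-voom were within 1.5 times those reported.

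The replicate numbers are shared by the groups but are not said to mark a batch. Same-numbered libraries deviated together from their group means with a correlation of 0.244 over rows, and with the replicate block 11 members were lower and 5 higher (30.6% and 13.9%, beside 37.1% and 15.3% of all rows). The added calls were Smarcc1 (adjusted p = 0.0110), Smarcd2 (0.0214), Baz1b (0.00698) and Smarcal1 (0.0244) lower, and Chd9 (0.0418), Ino80c (0.0475) and Ino80d (0.00666) higher. No call was lost. Depth limits the low members most: on a model of 1 kb, 1 fragment equals between 0.0164 and 0.0262 FPKM.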
